A study of Bos taurus with 8 samples.

Results

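The genes described here code for the receptors of glutamate and GABA, the main excitatory and inhibitory transmitters of the brain. They were selected by gene symbol, on chromosomes 1 to 29. In all, 41 of 24038 named autosomal genes matched, on 20 chromosomes, and they covered 2933 of the 902984 consecutive 3 kb windows into which the bovine genome (UMD v3.1) had been divided. These were 3 AMPA receptor genes (GRIA, 384 windows), 5 kainate (GRIK, 231), 2 delta (GRID, 533), 7 NMDA (GRIN, 277), 6 metabotropic glutamate (GRM, 554), 13 GABA-A (GABRA, GABRB, GABRG, GABRD and GABRP, 776), 3 rho (GABRR, 43) and 2 GABA-B receptor genes (GABBR, 135). GABRA3 and GRIA3 lie on chromosome X and were left out, and GRM5 and GRM7 were not analysed here.

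Methylated DNA was collected from dermal fibroblast cultures of 4 Holstein (dairy) and 4 Angus (beef) heifers, with 1 MIRA-Seq library per animal. The heifers were close in age, the cells came from shoulder skin, and all 8 cultures were at passage 5 and had received no treatment. In MIRA-Seq, proteins that bind methylated CpG sites pull down sonicated genomic DNA, and the bound fragments are sequenced, so that a window with more methylated CpG gives more reads. The design allows 2 comparisons, Holstein against Angus and, within each library, the first window of a gene against its other windows.

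AMPA, kainate and NMDA receptors are cation channels made of 4 subunits that open when glutamate binds, and the delta proteins belong to the same family but are bound at synapses by cerebellins. The metabotropic receptors act through G proteins. GABA-A receptors are chloride channels made of 5 subunits, rho subunits form channels of the same family best known from the retina, and GABA-B receptors are G protein coupled pairs of GABBR1 and GABBR2. Skin fibroblasts are not known for these receptors, and methylation of the start of a gene is commonly associated with silence, whereas methylation within a gene body is common in genes that are in use.

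Values are CPM (reads in a window per 1000000 reads counted in all windows), per 3 kb window, so genes of different length can be compared. The libraries held 18691111 to 35525554 reads in windows, of which 21031 to 57702 lay in the receptor genes, and 3 reads corresponded to 0.0844 to 0.161 CPM. This floor covers counting error only, since PCR copies are not independent molecules. Reads were more concentrated in Holstein 1 and Angus 3, where the top 1% of windows held 69% and 72.4% of all reads, and the receptor genes were low in both. Their first windows averaged 0.535 and 0.541 CPM in these libraries against 0.755 to 0.826 in the other 6, and their other windows 0.360 and 0.319 against 0.459 to 0.601. Results that rest on both libraries are given with and without them below. The fibroblast label was not checked by RNA here. The paper also sequenced RNA of the same cultures, but those data were not used. In the first windows of 11 fibroblast genes the mean lay between 0.0248 CPM (DCN) and 0.341 CPM (VIM), apart from COL5A1 at 3.88 CPM. The ranges were 0.127 to 0.637 CPM for 7 neuronal genes, 0.680 to 2.28 for 5 keratinocyte genes, 0.301 to 1.05 for 4 leukocyte genes and 0.550 to 2.89 for 3 endothelial genes.

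The receptor genes as a group had 0.726 ± 0.119 CPM (SD, n = 8 libraries) in their first windows and 0.480 ± 0.0960 CPM in their 2892 other windows. The first windows had the higher mean in 8 of 8 libraries. Over all named autosomal genes the same means were 0.853 ± 0.149 CPM in first windows and 0.861 ± 0.125 CPM in other windows. Gene by gene the picture of the receptor genes was different. The mean of the other windows counts every window alike, so long genes weigh most in it, whereas each gene adds a single first window. In 26 of the 41 genes the first window was the lower one, and the median gene had 0.363 CPM in its first window and 0.515 CPM over its other windows. Over all named autosomal genes the medians were 0.404 and 0.575 CPM and 66.1% had the lower value in the first window, against 63.4% of the receptor genes. Potassium channel genes (symbols starting with KCN, 89 genes), another large family of membrane channels, stood higher, with medians of 0.698 and 1.05 CPM. First windows of 1 CPM or more were found in 11 receptor genes (26.8%), 20.6% of all genes and 38.2% of the potassium channel genes. These shares are descriptions without a test.

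Low windows made up most of the receptor genes. Of the 2933 windows, 76.5% had under 0.5 CPM and 270 had 1 CPM or more, whereas 12 genes had no window at that level. With first windows left aside, 8.96% of receptor gene windows had 1 CPM or more. That share was 18.2% over all named autosomal genes and 16.7% over the potassium channel genes. The 29 highest windows, in 16 genes, held 20.9% of the CPM of all receptor genes. Levels in first and other windows went together across the 41 genes (Spearman's rho 0.763, against 0.556 over 19867 autosomal genes), and longer genes had lower other windows (rho -0.39 against -0.10). Genes are not independent replicates, and the points share libraries and depth. The 6 receptor genes of 2 to 5 windows had a median of 2.90 CPM in their other windows, and the 8 genes of 121 windows or more had 0.237 CPM. Over all named autosomal genes of these lengths the medians were 0.711 and 0.326 CPM. The CpG density of the windows was not measured here.

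**Figure D1:**
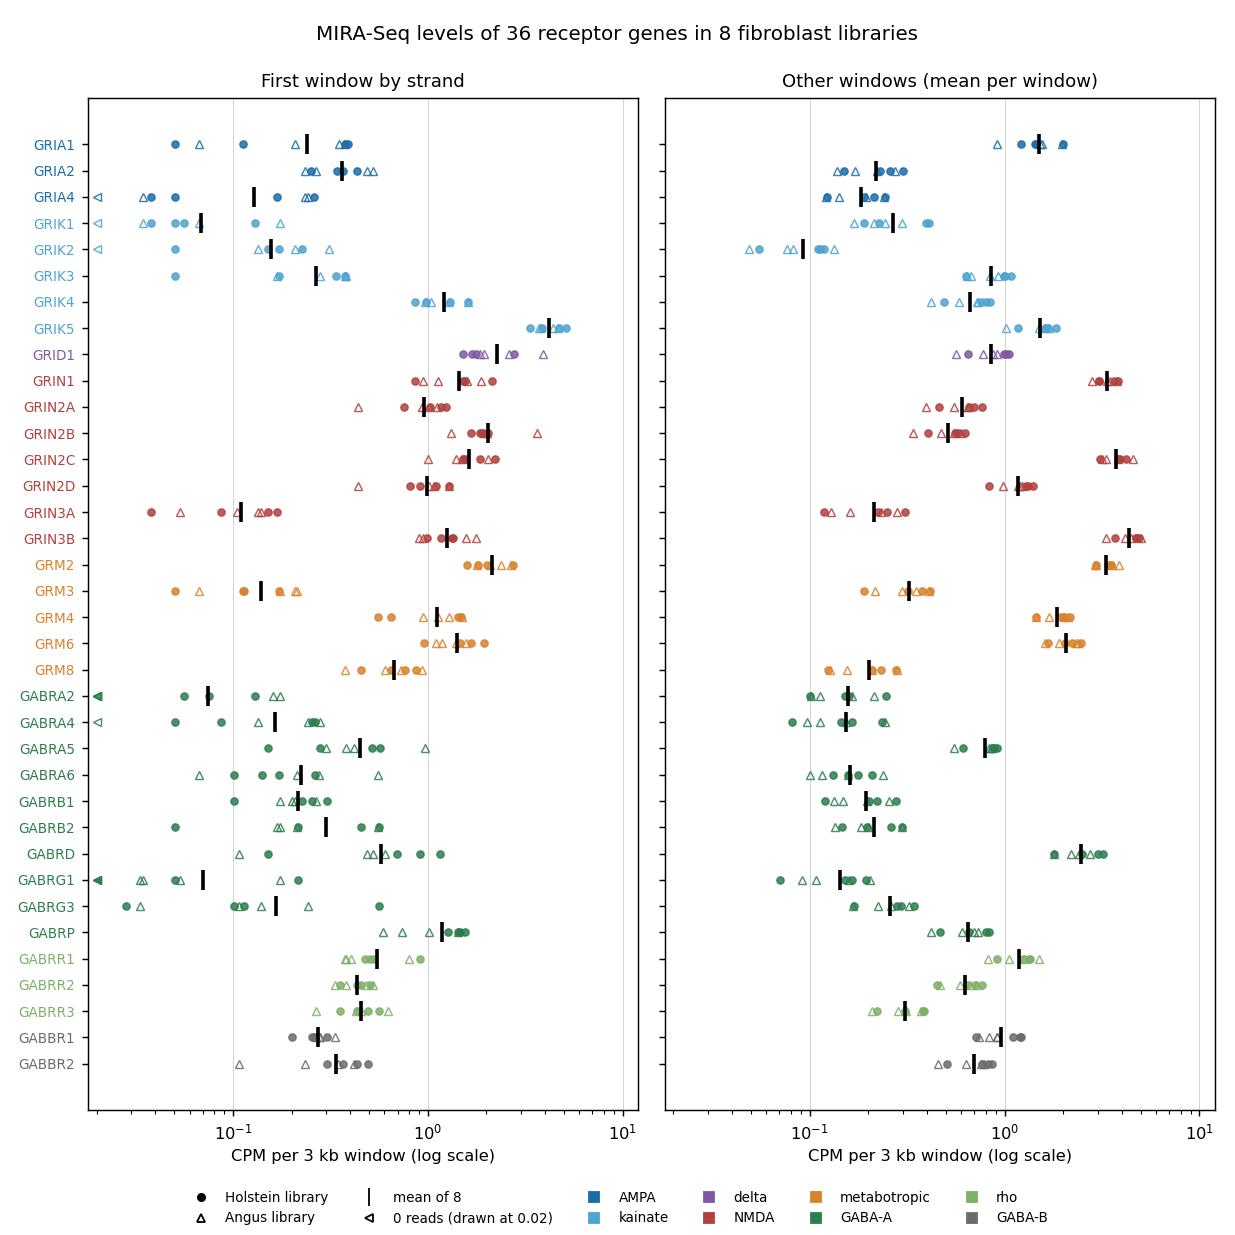
CPM per 3 kb window (log scale) in the first window by strand (left) and averaged over the other windows (right) of 36 of the 41 receptor genes, 1 row per gene and 1 colour per receptor class. Circles are Holstein libraries, triangles Angus libraries and bars the mean of 8; values of 0 are drawn at 0.02. Among the lowest rows on the right are GRIK2 (0.0921 CPM), several GABA-A genes, GRIA4 (0.183 CPM) and GRM8 (0.202 CPM). The highest are GRIN3B (4.37 CPM) and GRIN2C (3.73 CPM).

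The AMPA receptor genes, which code for the channels of fast excitatory transmission, had low first windows. GRIA1 (chr7:66760546-67114545, + strand, 118 windows) had 0.0506 to 0.390 CPM there, with a median of 0.279 CPM. Its other windows had 0.913 to 1.99 CPM (median 1.48), the highest level of the class and above the first window in 8 of 8 libraries. GRIA4 (203 windows) was the lowest of the class, with 0 to 0.260 CPM in its first window and 0.121 to 0.243 CPM (median 0.191) in the others. The ranges of GRIA1 and GRIA4 did not overlap in the other windows. Most of the GRIA1 level came from a pair of windows that are described below.

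The kainate receptor genes held both extremes. GRIK5 (chromosome 18, 18 windows), which codes for an auxiliary subunit of high glutamate affinity, had the highest first window of all receptor genes, with 3.33 to 5.15 CPM (median 4.12). This placed it at the 97.9th percentile of the first windows of all autosomal genes. Its other windows had 1.01 to 1.83 CPM (median 1.61), again the highest of the class. GRIK1 had the lowest first window of all receptor genes, 0 to 0.175 CPM, and was under 3 reads in 6 of 8 libraries. Only 3 windows carry its name, interleaved with windows of a gene on the other strand, so its values are uncertain. The lowest other windows were those of GRIK2, with 0.0486 to 0.133 CPM (median 0.0961). The 12 windows that carry its name span 36 kb and list coding exons 1 to 5, so much of the gene may lie outside them. GRIK3 (chr3:109420610-109669609, + strand, 83 windows) combined a first window of 0.0506 to 0.382 CPM with other windows of 0.635 to 1.08 CPM.

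The delta receptor genes are among the longest. GRID1 (chr28:40729565-41419564, - strand, 230 windows) had 1.52 to 3.91 CPM in its first window (median 1.90) and 0.561 to 1.05 CPM in the others. Its first named window lists coding exon 2, so the start of the gene may lie outside it. In all 8 libraries the first window was the higher one.

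The NMDA receptor genes, whose products gate calcium entry at excitatory synapses, had 1.21 ± 0.258 CPM (SD, n = 8) in their first windows as a class. GRIN2B (chr5:96406506-96763505, + strand, 119 windows), a glutamate-binding subunit abundant early in development, had 1.31 to 3.64 CPM in its first window (median 1.93) and 0.338 to 0.627 CPM in the others. The highest other windows belonged to GRIN3B, a glycine-binding subunit, with 3.32 to 5.01 CPM (median 4.58) over 3 windows, at the 96.5th percentile of all genes. Its relative GRIN3A (66 windows) was the lowest of the class with 0.118 to 0.310 CPM (median 0.228). In all 8 libraries the 2 genes lay far apart.

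Among the metabotropic genes, GRM2, an autoreceptor of glutamatergic nerve endings, had the highest levels, with 1.59 to 2.73 CPM in its first window (median 2.06) and 2.90 to 3.89 CPM in its 3 other windows. GRM8 (chr4:91470605-92316604, - strand, 282 windows) had the lowest other windows of the class, 0.124 to 0.281 CPM (median 0.209), below its own first window at 0.375 to 0.939 CPM (median 0.691). In all 8 libraries of GRM8 the first window was the higher one.

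As a class, the GABA-A receptor genes had 0.251 ± 0.0648 CPM in their other windows, against 0.361 ± 0.0744 CPM in the metabotropic and 0.766 ± 0.161 CPM in the kainate genes. The AMPA genes had 0.595 ± 0.133 CPM, but 0.240 ± 0.0648 CPM without the pair of GRIA1 windows. Within the GABA-A class the highest gene was GABRD, the subunit of extrasynaptic receptors, with 1.79 to 3.19 CPM (median 2.46) over its 3 other windows. The first windows of GABRG1 and GABRA2, which code for a gamma and an alpha subunit, were among the lowest of all receptor genes. They reached at most 0.216 CPM in GABRG1 and 0.175 CPM in GABRA2, with under 3 reads in 6 and 5 of the 8 libraries. A difference between these 2 genes was not tested, and counts this low leave their values uncertain.

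Many GABA-A genes are neighbours, such as GABRA5 and GABRG3 on chromosome 21. GABRA5 (chr21:4404963-4500962, + strand) had 0.152 to 0.963 CPM (median 0.401) in a first window that lists no coding exon and 0.550 to 0.915 CPM in the others. GABRG3 (chr21:4539963-5337962, + strand, 266 windows) was low in both, at 0.0281 to 0.563 CPM (median 0.110) and 0.166 to 0.342 CPM. GABRG1, GABRA2, GABRA4 and GABRB1 on chromosome 6, picked after their values were seen, had means of only 0.143 to 0.195 CPM in their other windows.

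The rho genes lay between these classes. GABRR1 had the highest other windows, 0.823 to 1.498 CPM (median 1.25), and GABRR3 the lowest, 0.208 to 0.387 CPM (median 0.310). First windows of GABRR1 had 0.375 to 0.909 CPM and those of GABRR3 had 0.269 to 0.628 CPM, so these overlapped. Of the GABA-B pair, GABBR1, the subunit that binds GABA, had 0.202 to 0.336 CPM in its first window and 0.713 to 1.22 CPM in the others. GABBR2, the subunit that couples to the G protein, had 0.107 to 0.492 CPM and 0.457 to 0.861 CPM. Both genes had the lower value in the first window in 8 of 8 libraries.

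The first window was then compared with the other windows of the same gene, within each library, by edgeR's likelihood-ratio test with the animal as a factor. A call needed FDR < 0.1 and at least a 2-fold difference, and a positive log2 difference means more reads per window in the first window. The SE and p measure the spread between the 8 libraries, not that between the windows of a gene. Of the 40 receptor genes tested, 18 were called, beside 49% of the 18172 genes tested in all. The first window was higher in 5 receptor genes, beside 11.9% of all genes, and lower in 13, beside 37.1%. The median log2 difference was -0.49 over the receptor genes and -0.60 over all autosomal genes. GRIK1 did not pass the filter on low counts.

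The 5 genes with a higher first window belonged to 5 classes. The log2 difference was 1.96 (SE 0.13, FDR 5.46e-54) in GRIN2B, a 3.89-fold difference that was present in 8 of 8 libraries. GRM8, a presynaptic receptor, followed with 1.77 (SE 0.16, FDR 4.10e-28). It was 1.49 (SE 0.09) in GRIK5 and 1.38 (SE 0.14) in GRID1. All 5 had the higher first window in 8 of 8 libraries, and all 5 stayed called under every alternative run for them.

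The 13 genes with a lower first window were led by GRIA1, whose log2 difference was -2.68 (SE 0.18, FDR 1.03e-50), or 6.39-fold. GABRD had -2.07 (SE 0.17), GRIN3B -1.82 (SE 0.11), GABBR1 -1.80 (SE 0.18) and GRIK3 -1.65 (SE 0.18). In these 5 genes the first window was lower in 8 of 8 libraries. The other 8 lay between -1.29 and -1.03, among them GRM3, GRIN1, GRIN2C, GABRA2, GABRG1, GABRR1 and GABBR2. Without its windows of 10 CPM or more GRIA1 was no longer called, at -0.61. Leaving out 1 library ended the call of GABRA2 (-0.94 without Angus 2), GABBR2 (-0.95 without Angus 4) and GABRG1 (-0.94 without Holstein 3 and -0.85 without Holstein 4). It added GRIN3A (-1.05 without Holstein 1, -1.02 without Holstein 4, -1.07 without Angus 3), GABRG3 (-1.23 without Holstein 2) and GABRA5 (-1.08 without Angus 4). Without both Holstein 1 and Angus 3, 18 genes were again called, beside 48.1% of all genes tested, with GRIN3A (-1.23) in place of GABRA2 (-0.92). Where the comparison used windows that list no coding exon, 14 of the 32 genes that could be tested were called, 7 higher and 7 lower. In that setting 45.4% of all 12121 genes tested were called, 2032 higher and 3473 lower.

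**Figure D2:**
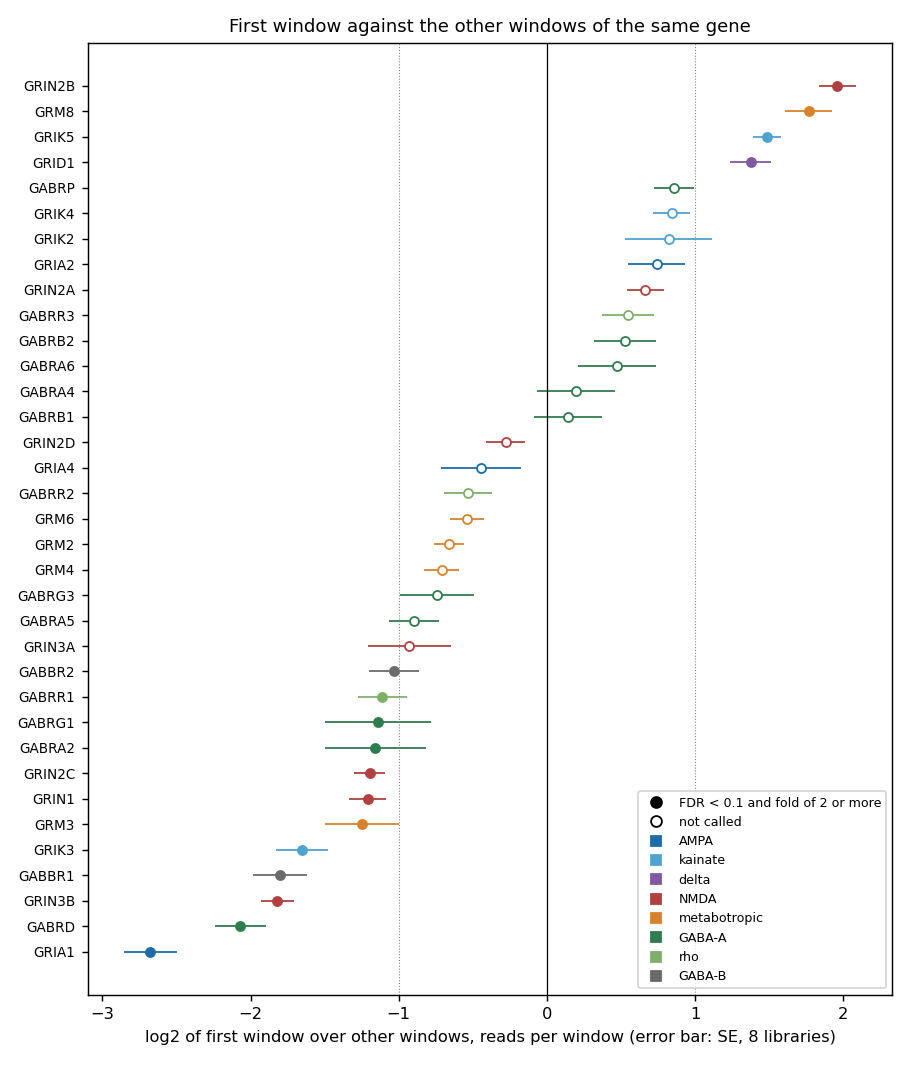
Log2 difference between the first window and the other windows of each gene in reads per window, sorted, for 35 of the 40 receptor genes tested. Points are estimates over 8 libraries with their SE, filled where called; dotted lines mark a 2-fold difference. The filled points on the right are GRIN2B, GRM8, GRIK5 and GRID1, from 1.96 to 1.38, and GRIA1 at -2.68 is farthest to the left.

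A few single windows stood far above the rest of their genes. The highest was window 44 of GRIA1 (chr7:66889546-66892545), which lists no coding exon and had 47.8 to 137 CPM (median 73.3). The adjoining window 45 (chr7:66892546-66895545), likewise without a coding exon, had 32.0 to 62.4 CPM (median 56.3). Together they held 77.1% of the CPM of GRIA1, and without them its other windows averaged 0.350 ± 0.0956 CPM instead of 1.51 CPM, with no single window above 1.12 CPM. Both windows were high in all 8 libraries.

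Some of the other high windows list coding exons. Window 2 of GRIN3B (chr7:45133546-45136545, exon 2) had 6.67 to 10.3 CPM (median 9.72), and window 5 of GRIN1 (chr11:105933685-105936684, exon 7), which codes for the obligatory NMDA subunit, had 5.32 to 11.2 CPM (median 8.34). The files also give the highest coverage within each window, which shows whether reads pile up at a point. Over the 270 receptor gene windows of 1 CPM or more, this highest coverage divided by the reads had a median of 0.203. It was 0.328 in window 44 and 0.539 in window 45 of GRIA1 and 0.510 in window 5 of GRIN1, but 0.142 in window 2 of GRIN3B. Whether repeats or copy number contribute to these windows was not tested.

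**Figure D3:**
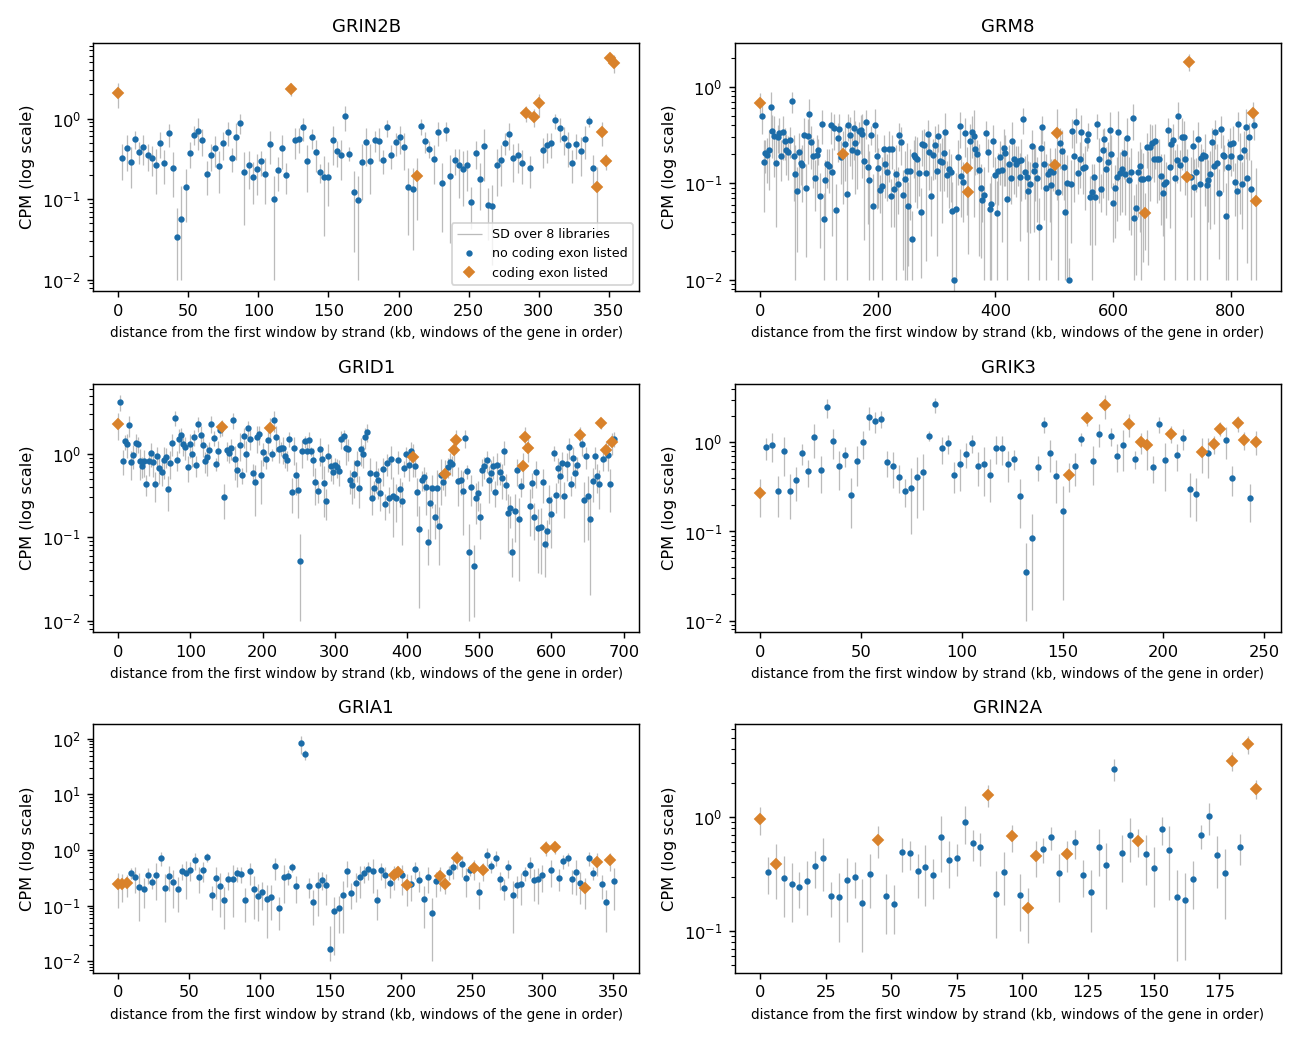
Mean CPM of every window (log scale) against the distance of the window from the first window by strand in kb, for 6 receptor genes; grey lines are the SD over 8 libraries, and orange diamonds are windows that list a coding exon. Values under 0.01 are drawn at 0.01. The pair of windows at 83.6 and 52.5 CPM in GRIA1 stands above all others of the gene, and the last 2 windows of GRIN2B (5.68 and 4.91 CPM) are its highest.

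Windows with a coding exon were compared with those without in 34 receptor genes that have both, the first window left aside. The exon windows had the higher mean in 24 of the 34 genes (70.6%, against 68.1% of 11643 autosomal genes), with a median ratio of 1.55 against 1.37. The largest ratios were those of GRIN2B (4.54), with 1.80 ± 0.239 CPM in exon windows and 0.397 ± 0.0978 CPM in the others, and of GRM3 (4.39), with 1.18 ± 0.142 and 0.268 ± 0.0832 CPM. GRIN2A (2.86) was also among the highest, and all 3 genes had higher exon windows in 8 of 8 libraries. These genes, picked after their values were seen, are all glutamate receptors. Over the 4 NMDA genes with both kinds of window, exon windows had 1.22 ± 0.159 CPM and the others 0.366 ± 0.0953 CPM. Over the 4 such metabotropic genes the levels were 1.19 ± 0.158 and 0.275 ± 0.0707 CPM. The order was reversed in GRIA1, GRIA4, GABRA4 and GABRG1, among others, in 8 of 8 libraries, for GRIA1 with the high windows named above among those without an exon. GABRA4 had 0.0798 ± 0.0459 CPM in exon windows and 0.172 ± 0.0647 CPM in the others.

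**Figure D4:**
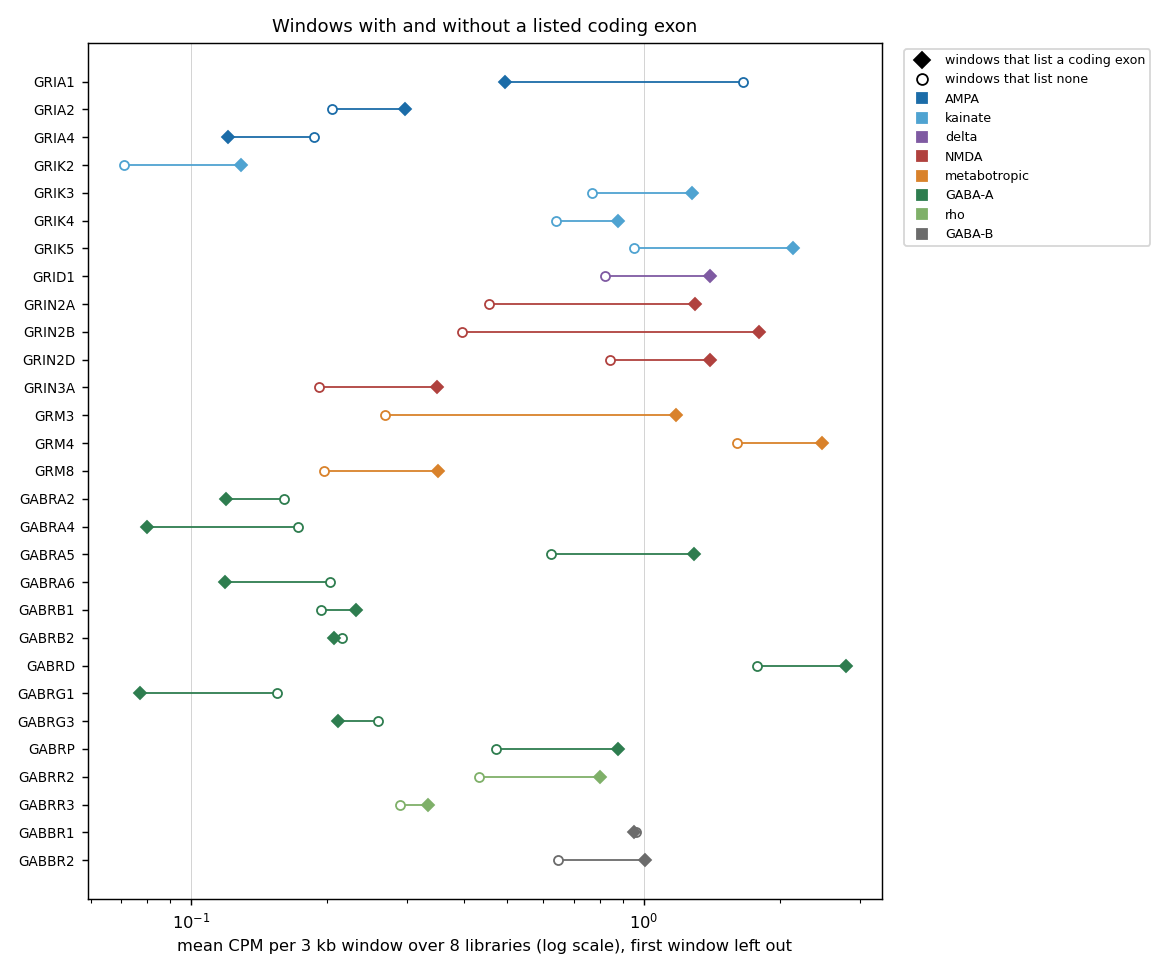
Mean CPM per window over 8 libraries (log scale) in windows that list a coding exon (diamonds) and in windows that list none (open circles), the first window left out, for 29 of the 34 receptor genes, coloured by class. The diamond lies to the right in 20 of them, farthest from its circle in GRIN2B (1.80 against 0.397 CPM).

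The ends of genes were looked at in the 24 receptor genes of more than 20 windows. In GRIN2B the last 2 windows, both listing coding exon 12, had 5.30 ± 0.876 CPM against 0.433 ± 0.101 CPM in the windows between the first and them, a ratio of 12.2. GRIN2A, the NMDA subunit that replaces GRIN2B with maturation, had 3.09 ± 0.546 and 0.521 ± 0.117 CPM, a ratio of 5.93. GRIN3A (3.02) also ended high, all 3 in 8 of 8 libraries. GRIA2, the subunit that makes AMPA receptors impermeable to calcium, ended low, at 0.0159 ± 0.0147 CPM against 0.225 ± 0.0613 CPM. Its value at the end lies under 3 reads per window (0.0844 to 0.161 CPM) and is uncertain. The highest window of the gene lay among the last 2 in 4 of the 24 genes (16.7%), near the 16.5% of 4025 autosomal genes of that length. It was the first window in 0 of the 24, against 3.53%.

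The breeds were compared over all 115360 windows that had at least 1 CPM in at least 4 libraries, of which 295 belonged to receptor genes. By edgeR's likelihood-ratio test, 0 of the 295 passed FDR < 0.1 and a 2-fold difference, beside 0.231% of all windows tested and 0.0923% of the autosomal ones. Delta (87), kainate (59) and metabotropic genes (45) supplied most of the tested windows. Single genes weighed heavily, with 84 windows from GRID1 and 32 from GRM4, and windows of a gene are not independent. In 17 of the 295 windows (5.76%) the unadjusted p was under 0.05, against 4.94% of all windows. That number was 15 by edgeR's quasi-likelihood test and 10 by DESeq2, again with 0 calls. Log2 differences, positive where Holstein was higher, ranged from -0.60 to 0.67 with a median of 0.03.

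The smallest p belonged to window 58 of GRM3 (chr4:33848805-33851804, coding exon 2), a receptor of glia and nerve endings. It had 2.53, 3.64, 2.95 and 3.32 CPM in Holstein 1 to 4 and 3.25, 4.24, 4.13 and 5.35 CPM in Angus 1 to 4. The breeds overlapped on CPM, but with TMM scaling every Angus library lay above every Holstein library. The log2 difference was -0.60 (SE 0.18, FDR 0.156 by edgeR's likelihood-ratio test). Over the alternatives its FDR ranged from 0.0329, without Angus 1, to 1.00, and the difference stayed under 2-fold. Window 6 of GRID1 (chr28:41401565-41404564, no coding exon) had 2.43, 3.29, 2.61 and 2.67 CPM in Holstein and 1.64, 1.74, 1.38 and 2.25 CPM in Angus. Its log2 difference was 0.51 (SE 0.17, FDR 0.345). Window 78 of GRIK3 (chr3:109651610-109654609, no coding exon) had 1.01, 1.60, 1.63 and 1.27 CPM in Holstein and 0.977, 1.01, 0.437 and 0.642 CPM in Angus, with a log2 difference of 0.67 (SE 0.24, FDR 0.481). In the latter 2 windows every Holstein library lay above every Angus library on CPM. On CPM, such separation was found in 6 of the 295 windows (2.03%), against 1.31% of all windows tested. All 6 were higher in Holstein, as were 1275 of all tested windows, whereas 240 separated the other way. With TMM scaling the Holstein libraries lay above in 5 receptor gene windows and the Angus libraries in 7, beside 1.38% and 1.25% of all those tested.

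Without the CPM filter 1 receptor gene window was called, beside 0.102% of 887821 windows.

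**Figure D5:**
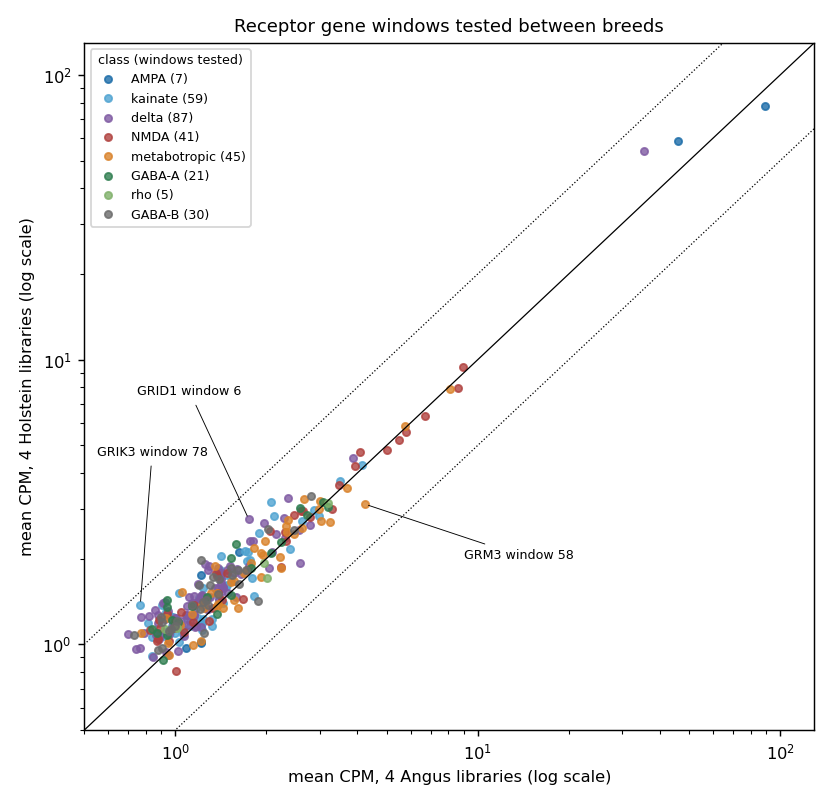
Mean CPM in 4 Holstein libraries against mean CPM in 4 Angus libraries (both log scales) for the 295 receptor gene windows tested, coloured by class. The solid line marks equal values and the dotted lines a 2-fold difference; the 3 windows with the smallest p are named, and 0 windows were called.

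Summed over the other windows of a gene, 0 of 39 receptor genes passed FDR < 0.1, beside 0.0544% of 16557 genes. An unadjusted p under 0.05 was found in 0 of the 39 by either edgeR test or DESeq2. By edgeR's likelihood-ratio test only 1.697% of all gene bodies tested had such a p, so 0 of 39 does not set the receptor genes apart. Among the smallest p were those of GRM3 (log2 difference -0.14, SE 0.12) and GABBR1 (0.14, SE 0.13), and GRM3 turned to 0.03 with library totals in place of TMM scaling. GRM3 had 0.190, 0.412, 0.319 and 0.377 CPM per window in Holstein and 0.408, 0.352, 0.217 and 0.299 CPM in Angus. GABBR1 had 0.713, 1.22, 1.10 and 1.20 CPM in Holstein and 0.918, 0.911, 0.742 and 0.829 CPM in Angus. The breeds overlapped in both genes. Over the 39 genes the differences lay between -0.16 and 0.24 on the log2 scale, with a median SE of 0.14.

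Of the first windows, 24 reached the 0.3 CPM required in at least 4 libraries and 0 were called, beside 0.227% of 16733. By edgeR's likelihood-ratio test GRID1 alone had an unadjusted p under 0.05, which is 4.17% of the 24, against 4.39% of all first windows tested. The same held by edgeR's quasi-likelihood test and DESeq2, which made 0 calls as well. The first window of GRID1 had 1.52, 1.77, 2.76 and 1.69 CPM in Holstein and 1.85, 2.61, 1.95 and 3.91 CPM in Angus, with a log2 difference of -0.52 (SE 0.21, FDR 0.762). GRIN2B had 1.67, 1.90, 1.85 and 2.03 CPM in Holstein and 2.02, 1.95, 1.31 and 3.64 CPM in Angus (log2 difference -0.34, SE 0.20). GABRP, a subunit found mostly outside the brain, had 1.26, 1.56, 1.44 and 1.46 CPM in Holstein and 1.01, 1.43, 0.739 and 0.589 CPM in Angus (0.41, SE 0.24). The breeds overlapped in all 3. Without Holstein 1 and Angus 3 there were again 0 calls among receptor gene windows, gene bodies and first windows.

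The pathway list held 63 genes for transport, synthesis, scaffolds, auxiliary subunits and the glycine receptor, of which 60 were found. Of the 58 that could be tested, the first window was higher in 5 and lower in 25 at the same thresholds, beside 11.9% and 37.1% of all genes. Among the higher ones were DLGAP1, a scaffold of the postsynaptic density, with 5.09 CPM in the first window against 0.531 CPM in the others, CACNG7, DLG1 and DAO (D-amino acid oxidase). Among the lower ones were SLC17A7, a vesicular glutamate transporter, with 0.184 against 1.36 CPM, and SLC1A3, a glial glutamate transporter, with 0.0668 against 0.423 CPM. Between breeds, 0 of 58 gene bodies and 0 of 40 first windows of these genes were called by edgeR's likelihood-ratio test. Over all gene bodies and first windows tested, 0.0544% and 0.227% were called. By the same test 2 of the 58 gene bodies and 0 of the 40 first windows had an unadjusted p under 0.05. The shares over all those tested were 1.697% and 4.39%.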

How the data were processed

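MIRA-Seq libraries of 8 dermal fibroblast cultures were analysed, 4 Holstein and 4 Angus, grouped by the breed in the sample labels. The authors filtered the reads, made with CASAVA 1.7, aligned them to UMD v3.1 with NextGENe 2.3.4 and deposited raw read counts per 3 kb window without normalization, with the gene name and coding exon that each window touches. The authors' files also give the highest coverage per window, a signal not scaled for depth, which was used only to look for stacked reads. Handling of duplicate reads and of reads with several matches is not given in the sources used here. Pull-down counts depend on CpG density, pull-down efficiency and DNA copy number, which no input library separated here, and they average over the cells of a culture, so fewer methylated cells and less methylation per cell cannot be told apart.

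Genes were the windows that share a name on 1 chromosome, and the first window was taken by strand. It stands in for the start of the gene: among the 41 receptor genes it lists coding exon 1 in 32, a later exon in 3 and none in 6. Of the receptor gene windows, 2932 were 3000 bases long and 1 was 3100. CPM was computed over the total of all windows (18691111 to 35525554 reads), where 3 reads are 0.0844 to 0.161 CPM. Tests were run in R 4.3.3 with edgeR 4.0.16 over all windows or genes of all chromosomes: TMM scaling, likelihood-ratio test, Benjamini-Hochberg adjustment. Windows needed 1 CPM in at least 4 libraries and calls FDR < 0.1 and FC of at least 2. Gene bodies (the sum of the windows after the first) had the same filter and no fold minimum, and first windows needed 0.3 CPM. The first window was compared with the others over 16 columns with animal as a factor and the number of windows as an offset. An SE was obtained from the log2 difference and the likelihood-ratio statistic, as the difference over the square root of the statistic. Each fit was tested on simulated counts. Libraries of 1 breed differed by more than sampling noise (chi-square per window 8.60 to 39.9), so all 8 were counted. Descriptions were computed in Python 3.11.15 with pandas 2.3.3 and numpy 2.4.6.

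The members, the pathway list (63 genes) and the marker lists were chosen with earlier results of these data known. Values per library are given for the 3 smallest p of each breed test, the 4 highest and 4 lowest first windows, the highest and lowest gene of each class by its other windows, the 5 largest and 5 smallest called differences between first and other windows, the 5 highest windows, and GABRA5 and GABRG3. Some genes that these rules reach are not reported here, although they enter every total. Alternatives were edgeR's quasi-likelihood test, DESeq2 1.42.0 (test and size factors), library totals only, other filters and thresholds, autosomes only, windows without a coding exon, a block for the replicate number and omission of each library in turn. Leaving out Holstein 1 with Angus 3, and leaving out windows of 10 CPM or more, were added after the data were seen. Promoter and protein sequences were not used here.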

Additional observations from a re-analysis of the deposited data

Results flagged for a closer look

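In groups of 4 libraries, a value was singled out when its gap to the nearest other library made up more than 0.829 of the range of the group (Dixon's criterion). Of 110 groups looked at, 11 were singled out, where chance alone gives about 1 in 20. The 6 low values all came from Holstein 1 and Angus 3, where reads were most concentrated. Holstein 1 was lowest in the other windows of GABRA5 (0.610 CPM against 0.875 to 0.915 in the other Holstein libraries), GRID1 (0.646 against 0.989 to 1.05), GRIK2 (0.0552 against 0.110 to 0.118) and GRIN3B (3.68 against 4.73 to 4.93), and in window 2 of GRIN3B (8.09 against 9.80 to 9.91). Angus 3 was lowest in the other windows of GABRA5, at 0.550 CPM against 0.830 to 0.861.

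The high ones were first windows and a single gene body window. Holstein 2 stood above the other Holstein libraries in the first windows of GABRG3 (0.563 CPM against 0.0281 to 0.114) and GABRR1 (0.909 against 0.479 to 0.530). It also did so in window 44 of GRIA1, at 118 CPM against 62.2 to 67.6. Angus 1 stood above the other Angus libraries in the first windows of GABRR1 (0.803 CPM against 0.375 to 0.403) and GABRG1 (0.175 against 0.0336 to 0.0535). The last of these lies at the level of 3 reads in several libraries. The part of any technical difference in these values was not tested.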

How the results depend on the processing

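Of the receptor gene windows, gene bodies and first windows, 0 were called between breeds under each alternative run, except that 1 window was called without the CPM filter. The replicate number as a block also gave 0 calls. Same-numbered animals did not deviate together (mean correlation of deviations -0.0023, from -0.16 to 0.14, against 0.0028 for different numbers), so the numbers were not taken as pairs, and over all windows the block gave 346 calls against 267. Over all windows the count was 141 by the quasi-likelihood test, 142 by DESeq2, 905 without the CPM filter, 642 without Holstein 1 and Angus 3, and 145 to 564 with each library left out, highest without Holstein 1. With library totals only, the median log2 difference of all tested windows was 0.14, and the GRM3 gene body turned from -0.14 to 0.0268.

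For first against other windows, the number called higher stayed at 5 and the number called lower at 12 to 14 under every alternative but 2. Without a fold minimum 13 were higher and 22 lower, beside 4662 and 10433 of all 18172 genes tested. With windows that list no coding exon, 7 were higher and 7 lower among the 32 genes that could then be tested. Beside them stood 2032 higher and 3473 lower of all 12121 genes tested. Of the 18 calls, 15 were kept whichever single library was left out. The mean of the first windows was 0.882 CPM with autosomal reads as the library size, 0.441 with matched reads and 0.390 as a median over windows. The mean of the other windows was 0.581, 0.292 and 0.237 CPM, and 0.381 CPM without the top 1% of windows. Depth limits the low first windows, of which 21 of 41 had at least 3 reads in every library.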
